A study of Homo sapiens with 54 samples.

Results

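Cyclins and their CDK partners were followed here as a set of 10 genes. The set holds the D-type cyclins CCND1, CCND2 and CCND3, the E-type cyclins CCNE1 and CCNE2, the A-type cyclin CCNA2, the B-type cyclins CCNB1 and CCNB2, and the kinases CDK1 and CDK2. The genes were chosen by name and make up 10 of the 55906 gene rows in each table of TPM, a unit of transcript abundance scaled for transcript length and for the total of the library.

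Cyclins are regulatory subunits that bind and activate cyclin-dependent kinases (CDKs), and their abundance rises and falls through the cell division cycle. D-type cyclins act in G1 with CDK4 and CDK6 and are induced by growth signals, E-type cyclins act with CDK2 at the entry into S phase, cyclin A2 acts with CDK2 and CDK1 in S and G2, and B-type cyclins act with CDK1 to drive mitosis. CDK activity is held back by inhibitor proteins such as p21 (CDKN1A) and p27 (CDKN1B).

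The study depleted TRA2A and TRA2B, paralogous splicing regulators, in 4 cancer cell lines and measured RNA by sequencing in 54 samples, 3 for each of 18 groups. A549 and NCI-H23 are lung cancer lines, LN229 and LN319 are glioma lines, and the study describes A549 and LN229 as TRA2A-independent and NCI-H23 and LN319 as TRA2A-dependent. The lung lines stably expressed Zim3-dCas9, a CRISPR interference repressor, and were collected on day 5 after transduction with guides against control loci (Control KD), TRA2A (TRA2A KD), TRA2B (TRA2B KD) or both genes (TRA2A/B DKD). The glioma lines carried a luciferase (Luc) or a TRA2B (TRA2B-OE) expression construct and were collected on day 7 after transduction with Cas9 and a guide, which gave Luc Control KO, Luc TRA2A KO, Luc TRA2B KO, TRA2B-OE Control KO and TRA2B-OE TRA2A KO. All groups are transduced populations rather than clones, so unedited or unrepressed cells can remain in each. Neither the labels nor the methods say that the 3 samples of a group were separate cultures, so p-values measure the spread between these samples, which may be technical. In bulk RNA, fewer cells that express a gene and less of its RNA per cell cannot be told apart.

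The targeted genes moved in the labelled direction, with 1 exception in strength. On the log2 scale TRA2A fell by 3.29 in A549 and 3.90 in NCI-H23 after TRA2A KD, TRA2B fell by 3.27 and 3.35 after TRA2B KD, and DKD lowered both in each line. In NCI-H23, DKD lowered each by less than the summed single effects. The difference was 1.00 (SE 0.096, adjusted p = 7.37e-05 by limma) for TRA2A and 0.63 (SE 0.14, adjusted p = 0.00989) for TRA2B. In A549 it was -0.09 and 0.18, and neither passed. Cas9 alters coding sequence and need not lower the mRNA. TRA2A changed by -0.65 in LN229 and -1.55 in LN319 after Luc TRA2A KO, and TRA2B by -0.65 and -1.62 after Luc TRA2B KO, where TRA2A also changed, by 0.58 and -0.35. TRA2B rose by 1.85 and 3.03 in TRA2B-OE Control KO. In TRA2B-OE TRA2A KO, TRA2A changed by -0.86 in LN319, and by -0.23 (SE 0.069, adjusted p = 0.068) in LN229, where it did not pass. Both values are against TRA2B-OE Control KO and do not measure the change from Luc Control KO. In LN229 without Luc Control KO replicate 1, TRA2B-OE Control KO passed as higher for TRA2B and lower for TRA2A. The paper reports a strong fall of TRA2A protein with TRA2B overexpressed in NCI-H23 and LN319. The keratins KRT8 and KRT18 were at 445 TPM or more in every lung library, and EPCAM was at most 3.77 TPM in both lung lines. CDH1, also an epithelial marker, was at 7.95 to 25.2 TPM in A549 and at most 2.47 in NCI-H23. In the glioma line LN319, CDH1 was at 116 to 150 TPM and KRT8 at 89.3 to 128. The mesenchymal marker VIM was at 834.7 to 1196 TPM in A549 and 1121 to 1687 in NCI-H23. FN1, another, was at 193 to 364 and at most 1.96 TPM. Of the glial or neural markers, GFAP, a defining astrocyte gene, was at most 5.17 TPM in both glioma lines, SOX2 was at 20.4 to 90.8 TPM in LN229 and 316 to 489.8 in LN319, NES at 213 to 286 and 6.12 to 14.7, and OLIG2 at 5.93 to 14.2 in LN229 and at most 0.14 in LN319. A549 Control KD replicate 3 stood apart, with a mean correlation with its own group of 0.842, against 0.884 to 0.943 for the other A549 libraries. In LN229, Luc Control KO replicate 1 was low for several members (CDK1 at 79.2 TPM, CCNE1 at 14.4), and so was TRA2B-OE Control KO replicate 1 (79.3 and 13.6). The mean correlation of Luc Control KO replicate 1 was higher with Luc TRA2B KO libraries (0.959) than with its own group (0.944). Luc Control KO replicates 2 and 3 were closest to Luc TRA2A KO (0.955 and 0.950, against 0.951 and 0.946 with their own group).

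In the control groups, CCND1 had the highest TPM of the set in 3 of the 4 lines. Its mean was 303 ± 93.4 TPM in A549 (SD, n = 3, as for all means here), 279.7 ± 9.17 in NCI-H23 and 388 ± 76.0 in LN229. In LN319 it was 9.91 ± 1.22 TPM, the second lowest of the 10. CCNB1 followed in A549, NCI-H23 and LN229 and led in LN319, at 175 ± 11.6, 243 ± 23.8, 211 ± 54.7 and 195 ± 7.18 TPM. The order below the leading member was unresolved in several places, where library ranges overlapped with those of the neighbour. These included CCNB1, CDK1, CDK2, CCNB2 and CCND3 in LN229, CCNB2, CDK1 and CCNA2 in NCI-H23, and CCNA2 and CCNE1 in A549. E-type cyclins were among the lower members, with CCNE1 above CCNE2 in the lung lines (4.61 ± 0.737 times in A549 and 3.22 ± 0.543 times in NCI-H23) and CCNE2 above CCNE1 in the glioma lines (a CCNE1 to CCNE2 ratio of 0.699 ± 0.0548 in LN229 and 0.569 ± 0.0484 in LN319). CCND2 was the lowest member in A549, LN229 and LN319 and was a substantial transcript in NCI-H23 alone, at 30.9 ± 1.31 TPM.

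D-type transcripts therefore came mostly from CCND1 in 3 lines and from CCND3 in LN319. CCND1 made up 69.01 ± 6.80% of the D-type TPM in A549 controls, 79.9 ± 1.31% in NCI-H23 and 83.5 ± 2.37% in LN229. In LN319 controls CCND3 made up 89.4 ± 1.46% and CCND1 10.2 ± 1.48%. The lines were fitted separately, so these levels are set side by side without a test between lines.

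Genes at 1 TPM or more in at least 4 libraries of a line were tested with limma on log2(TPM + 0.1) after trimmed-mean scaling, and p-values were adjusted over all genes of the line. All 10 members passed the filter in NCI-H23, and 9 passed in A549, LN229 and LN319, where CCND2 did not. A fold change on this scale understates the change of low genes. Comparisons within a line share their control libraries, except that TRA2B-OE TRA2A KO was compared with TRA2B-OE Control KO.

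In the lung lines, the S-phase and mitotic members fell together when both TRA2 paralogs were depleted. CCND3 fell too, by a small amount in A549, while CCND1 did not pass the test and CCND2 rose where it was expressed. In A549 DKD, 8 of 9 tested members fell and none rose, against 15.9% of all 16405 tested genes falling and 14.6% rising. In NCI-H23 DKD, 8 of 10 fell and 1 rose, against 23.2% and 20% of 16293 genes. The median log2 fold change of the tested members was -0.88 in A549 and -0.68 in NCI-H23, beside medians over all genes of 0.04 and 0.02. With an absolute log2 fold change above 1 as well, 3 members fell in A549 DKD and 2 in NCI-H23 DKD, against 5.14% and 5.74% of all genes. All 3 DKD libraries lay below all 3 controls for 8 members in each line, against 17.7% and 19% of all genes, and above them for 1 member in NCI-H23, against 33.1%. The cells' own epithelial markers also fell, 4 of 4 in A549 DKD (median -0.94) and 3 of 4 in NCI-H23 DKD (median -0.61). Their summed level was 4095 to 4307 TPM against 5395 to 5815 in A549 controls, and 1371 to 1605 against 1906 to 1971 in NCI-H23. The mesenchymal markers VIM and FN1 summed to 1030 to 1121 TPM in A549 DKD, against 1268 to 1560 in controls. In NCI-H23 they summed to 1122 to 1263 TPM in DKD, against 1583 to 1613. The part of either marker set in these results was not tested. No member passed in either single knockdown of either line by limma (adjusted p under 0.05), where 2 of 9 in A549 TRA2A KD, 0 of 9 in A549 TRA2B KD, 1 of 10 in NCI-H23 TRA2A KD and 1 of 10 in NCI-H23 TRA2B KD had an unadjusted p under 0.05, beside 11.3%, 13.6%, 13.6% and 10.6% of all genes. The shares of all genes that passed in those single knockdowns were 0.0488% higher and 0.165% lower, 0.274% and 0.061%, 0.374% and 0.601%, and 0.16% and 0.0368%, in the same order.

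**Figure D1:**
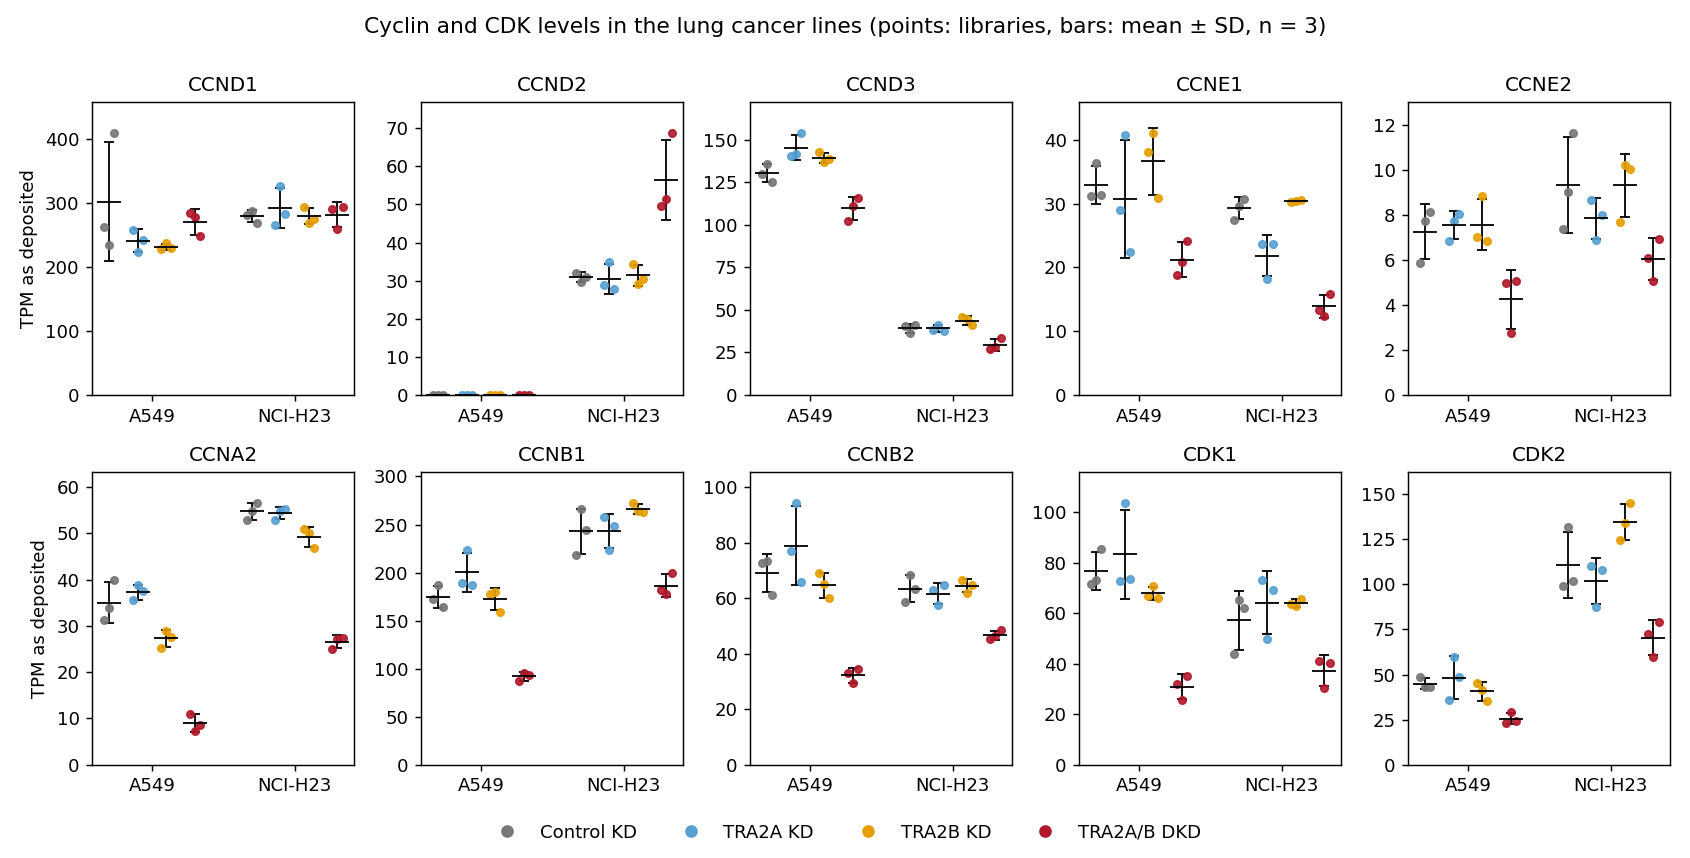
TPM of the 10 members in each library of A549 and NCI-H23, by group; points are libraries and bars the mean ± SD of 3. CCND3, CCNE1, CCNE2, CCNA2, CCNB1, CCNB2, CDK1 and CDK2 have their lowest library in the double knockdown in both lines, whereas CCND1 overlaps with its controls.

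CCND1 (chr11:69641156-69654474, plus strand, GRCh38) is the D-type cyclin best known as a growth-signal sensor. It stood at 264, 235 and 409 TPM in the A549 controls and 285, 279 and 248 TPM in A549 DKD. The DKD libraries lay inside the control range, which the third control library widened, and the log2 fold change was -0.19 (SE 0.14, adjusted p = 0.329). Without that control library it was -0.03. NCI-H23 gave 281, 288 and 269.8 TPM in controls and 292, 260.1 and 295 TPM in DKD, again overlapping. The log2 fold change there was -0.15 (SE 0.081, adjusted p = 0.175), and the mean TPM as deposited was 100.9% of control, so the direction for CCND1 in NCI-H23 turned with the scaling. Over the 12 single-knockdown libraries of both lines CCND1 lay at 223 to 327 TPM, with log2 fold changes from -0.25 to 0.07, none of which passed.

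CCND2 (chr12:4269771-4305353, plus strand) was the one member that rose with DKD in NCI-H23. Its TPM was 32.1, 29.5 and 31.1 in controls, 28.8, 35.0 and 27.8 in TRA2A KD, 34.5, 29.2 and 30.4 in TRA2B KD and 49.5, 51.4 and 68.6 in DKD. Every DKD library was above every other NCI-H23 library, and the single knockdowns overlapped with the controls. The rise was 0.70 (SE 0.13, adjusted p = 0.00114) on the log2 scale, to 183% of the control mean, and it took CCND2 from 8.84 ± 0.424% to 15.3 ± 1.93% of the D-type TPM. In A549, CCND2 was at 0 in 7 of 12 libraries and reached at most 0.0490 TPM.

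CCND3 (chr6:41934934-42050357, minus strand) fell with DKD in both lung lines. In NCI-H23 it went from 40.4, 36.3 and 41.1 TPM to 26.8, 28.1 and 33.4 TPM. No DKD library reached the control range, and the log2 fold change was -0.57 (SE 0.094, adjusted p = 0.000579). A549 showed 129.9, 135 and 125 TPM in controls and 102, 111 and 116 TPM in DKD. These groups did not overlap either, but the change was small, -0.32 (SE 0.11, adjusted p = 0.0456), and its call was lost with no filter, a 5 TPM minimum, quantile normalization, the replicate block, a fit of only the groups compared, or when Control KD replicate 1 or 2 or any DKD library was left out. Adjusted p ran from 0.0014 to 0.152 over all alternatives. In the single knockdowns of A549, CCND3 libraries lay at 137 to 154 TPM, above all 3 controls, with log2 fold changes of 0.30 and 0.19 that did not pass the test (adjusted p = 0.369 and 0.42). The share of all genes with such a non-overlap upward was 2.94% after TRA2A KD and 8.03% after TRA2B KD.

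The E-type cyclins, which partner CDK2 at the G1/S boundary, fell in both double knockdowns. CCNE1 (chr19:29811991-29824312, plus strand) measured 27.5, 29.6 and 30.8 TPM in NCI-H23 controls and 13.4, 12.45 and 15.9 TPM in DKD, with no overlap. This was a log2 fold change of -1.23 (SE 0.097, adjusted p = 3.49e-06), the lowest of the 10 members in that line, leaving 47.5% of the control mean. NCI-H23 TRA2A KD alone gave CCNE1 values of 23.7, 18.1 and 23.7 TPM, all below the controls. Its log2 fold change of -0.41 (SE 0.097, adjusted p = 0.0826) did not pass, and 8.59% of all genes had a downward non-overlap in that comparison. In A549, CCNE1 went from 31.1, 36.3 and 31.3 TPM in controls to 18.7, 20.8 and 24.1 TPM in DKD. The fall was -0.70 (SE 0.19, adjusted p = 0.0186) and lost its call without Control KD replicate 2, DKD replicate 1 or DKD replicate 2, with adjusted p from 0.00897 to 0.0733 over all alternatives.

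CCNE2 was the rarer E-type transcript in both lung lines. A549 controls held 5.86, 7.75 and 8.15 TPM and DKD libraries 4.96, 2.74 and 5.08 TPM. All DKD values were below all controls, with a log2 fold change of -0.86 (SE 0.23, adjusted p = 0.0153) that was lost when only the groups compared were fitted. NCI-H23 controls held 7.37, 8.999 and 11.6 TPM and DKD libraries 6.07, 5.08 and 6.94 TPM, a log2 fold change of -0.76 (SE 0.17, adjusted p = 0.00385). The ratio of CCNE1 to CCNE2 in NCI-H23 was 3.22 ± 0.543 in controls and 2.31 ± 0.124 in DKD, ranges that did not overlap.

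CCNA2 had the lowest log2 fold change of the set in A549 DKD. Its TPM was 31.3, 33.8 and 39.9 in controls, 35.6, 38.8 and 37.5 in TRA2A KD, 25.3, 29.0 and 27.6 in TRA2B KD and 11.1, 7.23 and 8.49 in DKD. Each DKD library was below every other A549 library. The log2 fold change was -2.04 (SE 0.13, adjusted p = 2.66e-06), leaving 25.5% of the control mean. NCI-H23 controls gave 53.0, 54.8 and 56.5 TPM and DKD gave 24.9, 27.3 and 27.4 TPM. The groups were far apart relative to their spread, with a log2 fold change of -1.20 (SE 0.067, adjusted p = 3.21e-07) and 48.5% of the control mean. TRA2B KD libraries lay below the controls without overlap in both lines, by -0.26 in A549 and -0.27 in NCI-H23, and neither passed the test (adjusted p = 0.395 and 0.218). Downward non-overlap was seen for 11.9% and 3.53% of all genes in those comparisons.

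The B-type cyclins fell more in A549 than in NCI-H23, although the lines were not tested against each other. CCNB1 went from 173, 187 and 164 to 86.6, 95.7 and 93.8 TPM in A549, and from 218, 266 and 244 to 182, 178 and 199.7 TPM in NCI-H23. CCNB2 went from 72.7, 73.2 and 61.2 to 32.9, 29.3 and 34.5 TPM in A549, and from 58.7, 68.3 and 63.2 to 45.2, 46.5 and 48.4 TPM in NCI-H23. Neither gene had a DKD library inside its control range in either line. The log2 fold changes of CCNB1 were -0.99 (SE 0.11, adjusted p = 9.94e-05) and -0.53 (SE 0.055, adjusted p = 2.46e-05). Those of CCNB2 were -1.16 (SE 0.15, adjusted p = 0.00022) and -0.59 (SE 0.057, adjusted p = 1.31e-05). In A549 TRA2A KD, CCNB1 libraries of 189, 224 and 188 TPM were all above the controls, with a log2 fold change of 0.34 (SE 0.11, adjusted p = 0.352) that did not pass.

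The promoters of these members are shown because cyclin A2, the B-type cyclins and CDK1 moved together in DKD and because such genes are known for CCAAT boxes and for cell-cycle homology region (CHR) elements near the start of transcription. CCND3, CCNE1, CCNE2 and CDK2 fell in DKD as well, and a link between these motifs and the fall was not tested. The sequences are RefSeq windows of GRCh38.p14 upstream of annotated starts, written 5′ to 3′ on the gene's strand. For the cyclins only bases outside protein-coding exons are shown, and the short CDK1 stretch lies within an annotated exon of that gene, upstream of its second annotated start. Both strands were searched for CCAAT and for the CHR words TTTGAA and CTTGAA, and capitals mark the matches, ATTGG being CCAAT on the other strand. Windows were given for 6 of the 10 members, and none for CCND1, CCND2, CCNE2 and CDK2.
CCNA2, chr4:121823884-121824133, minus strand: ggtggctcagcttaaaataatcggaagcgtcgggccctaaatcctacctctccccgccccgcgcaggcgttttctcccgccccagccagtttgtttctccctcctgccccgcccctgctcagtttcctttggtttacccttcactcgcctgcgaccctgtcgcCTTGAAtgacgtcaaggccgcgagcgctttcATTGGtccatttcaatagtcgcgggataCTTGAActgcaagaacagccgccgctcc
CCNB1, chr5:69166900-69167134, plus strand: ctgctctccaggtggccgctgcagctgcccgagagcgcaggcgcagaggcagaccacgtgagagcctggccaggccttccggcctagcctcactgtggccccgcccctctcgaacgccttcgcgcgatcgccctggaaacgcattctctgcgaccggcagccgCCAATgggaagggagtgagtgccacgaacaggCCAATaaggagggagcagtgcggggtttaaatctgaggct
CCNB2, chr15:59104896-59105125, plus strand: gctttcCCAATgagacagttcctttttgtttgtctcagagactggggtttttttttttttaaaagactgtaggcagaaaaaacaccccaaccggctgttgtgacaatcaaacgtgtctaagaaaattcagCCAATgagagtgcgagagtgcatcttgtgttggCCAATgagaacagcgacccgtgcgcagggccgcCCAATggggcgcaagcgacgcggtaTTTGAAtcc
CDK1, chr10:60778400-60778414, plus strand: ATTGGctgcTTTGAA

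Within 250 bases upstream of the start, CCNB2 held 4 CCAAT boxes and 1 CHR word, CCNB1 held 2 CCAAT boxes and no CHR word, and CCNA2 held 1 CCAAT box and 2 CHR words. Of the CDK1 windows, the first held 1 CCAAT box and 1 CHR word, and the second 2 of each. The CDK1 stretch shown is a part of the second window, cut to begin and end with a motif. In it a reversed CCAAT box and TTTGAA stood 4 bases apart. Shares over whole windows cannot be set against this stretch. The CCNE1 window held neither motif, and of 3 CCND3 windows 2 held a single CCAAT box and none a CHR word. Over all 35116 promoter windows of the same length, 32.0% held a CCAAT box, 20.9% a CHR word, 9.53% at least 2 CCAAT boxes and 7.38% both motifs. A match is a description of letters and not evidence that a factor binds. Only the CHR words named above were searched for, so a window without them is not shown to lack the element.

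The kinases fell with their cyclins. CDK1 (chr10:60778331-60794852, plus strand), the mitotic kinase, measured 71.4, 73.1 and 85.3 TPM in A549 controls and 31.8, 25.5 and 35.3 TPM in DKD. No DKD library reached the lowest value of any other A549 group, and the log2 fold change was -1.39 (SE 0.13, adjusted p = 2.22e-05). In NCI-H23 it measured 43.9, 65.4 and 62.2 TPM in controls and 41.2, 30.4 and 40.3 TPM in DKD. The lowest control library was close to the highest DKD library without overlapping it, and the log2 fold change was -0.76 (SE 0.15, adjusted p = 0.00187).

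CDK2 (chr12:55966781-55972789, plus strand), the partner of the E- and A-type cyclins, went from 48.6, 43.1 and 43.1 TPM to 23.3, 29.1 and 24.4 TPM in A549 DKD, and from 98.8, 132 and 102 TPM to 72.7, 59.7 and 78.9 TPM in NCI-H23 DKD. Both double knockdowns lay wholly below their controls. The log2 fold changes were -0.88 (SE 0.17, adjusted p = 0.00331) in A549 and -0.81 (SE 0.11, adjusted p = 0.000209) in NCI-H23. Without A549 Control KD replicate 3, the same number of members fell in A549 DKD, 8 of 9, against 20.2% of all genes, and CCND3 changed by -0.43 (SE 0.075, adjusted p = 0.0014). Mitochondrial transcripts took 17.6 to 23.4% of TPM in A549 DKD and 18.005 to 21.6% in its controls, and 19.3 to 28.3% and 23.1 to 31.9% in NCI-H23.

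**Figure D2:**
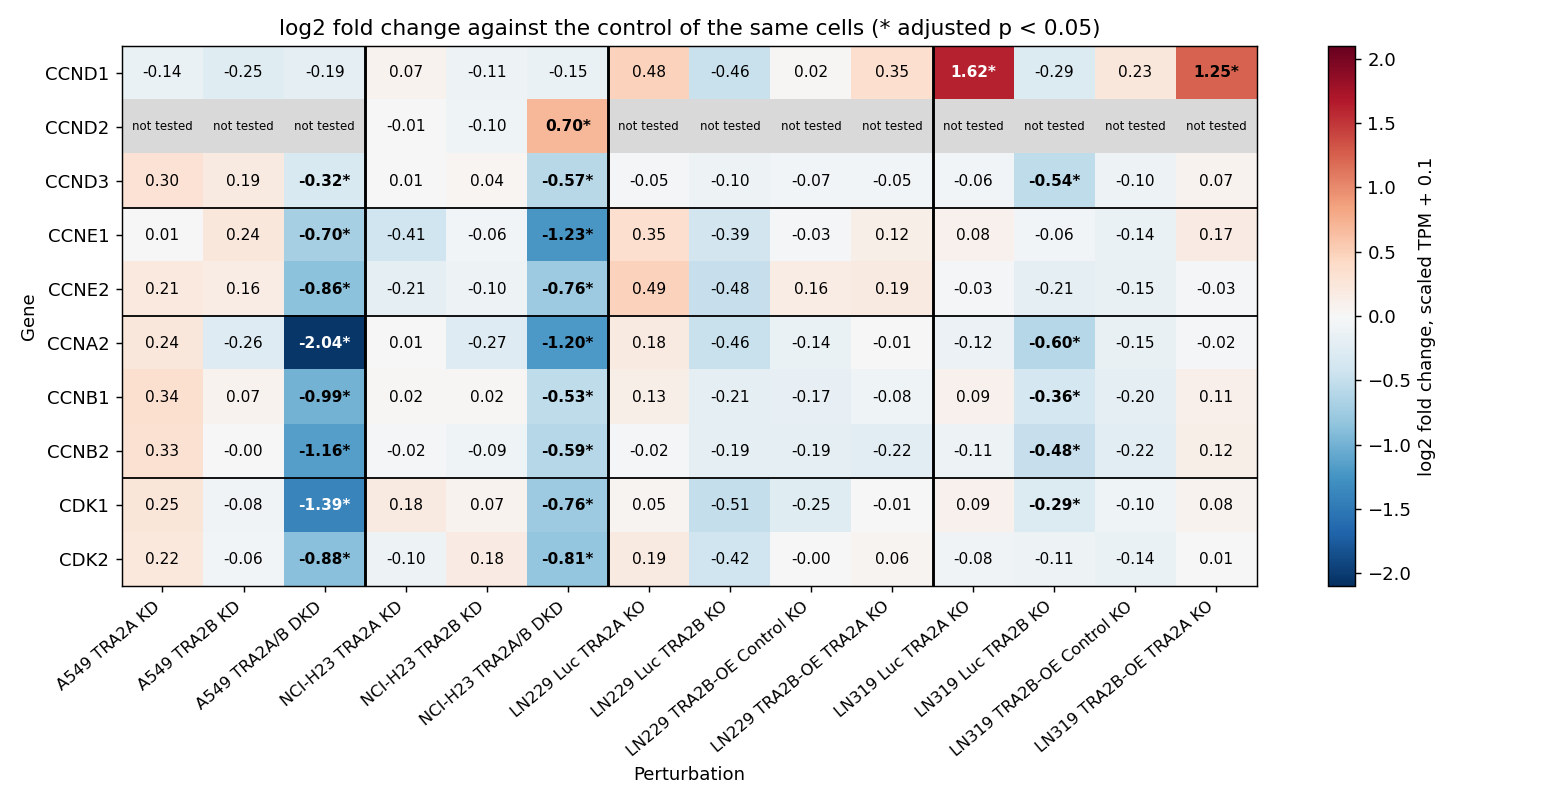
Log2 fold change of each member (rows) in each of the 14 comparisons (columns), with colour for direction and size, an asterisk for adjusted p under 0.05 by limma, and grey for CCND2 where it was not tested. The asterisks gather in the 2 double knockdowns and in LN319 Luc TRA2B KO, while CCND1 has its asterisks in the LN319 TRA2A knockouts.

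The balance between D-type and later cyclins was described by summed TPM per library, without a test. In A549 the D-type sum was 1.57 ± 0.397 times the A- and B-type sum in controls, 1.24 ± 0.186 in TRA2A KD, 1.41 ± 0.0730 in TRA2B KD and 2.86 ± 0.173 in DKD. The DKD libraries, 2.66 to 2.97, lay above the whole control range of 1.26 to 2.01. In NCI-H23 the ratio was 0.974 ± 0.0863 in controls, 1.01 ± 0.165 and 0.934 ± 0.0239 in the single knockdowns and 1.42 ± 0.0590 in DKD, and its DKD range of 1.35 to 1.46 was again clear of the controls. Against the E-type cyclins, the D-type sum was 9.13 ± 1.05 times the E-type sum in NCI-H23 controls and 18.6 ± 1.04 times in DKD, with no overlap. In A549 the ratio to E-type cyclins was 10.9 ± 2.58 in controls and 15.1 ± 2.32 in DKD, ranges that overlapped through Control KD replicate 3 (13.5). The other 2 controls, at 10.6 and 8.41, lay below the DKD range of 12.45 to 16.6. The D-type sum is mostly CCND1 in both lines, so these ratios largely set CCND1 against the other cyclins.

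**Figure D3:**
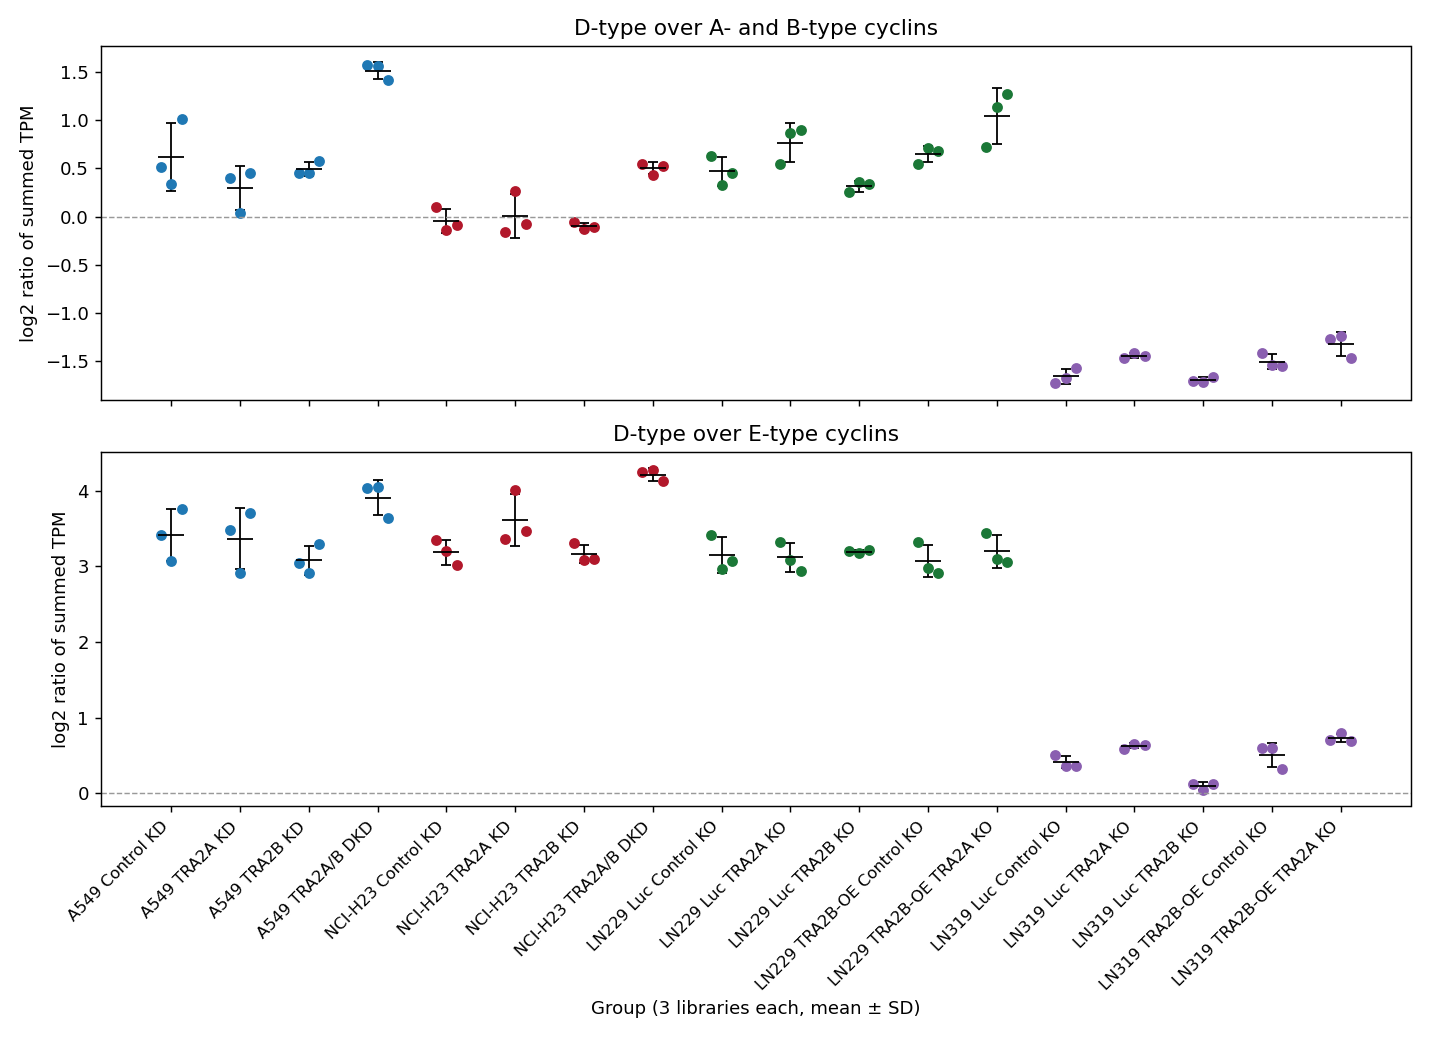
Log2 ratio of summed TPM in each library of the 18 groups, with D-type over A- and B-type cyclins above and D-type over E-type cyclins below. Points are libraries. The double knockdowns have the highest D-type to A- and B-type ratios of their own lung line, and LN319 lies lowest of the 4 lines in both panels.

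The design also asks whether the double knockdown equals the sum of the single ones. The test is an interaction term on the log2 scale, the DKD effect minus both single effects. In A549 the term was below 0 and passed for 8 of 9 members, against 8.7% of all genes below and 6% above, and in NCI-H23 it passed below 0 for 7 of 10 and above 0 for 1, against 12.8% and 8.23%. Below -1 were 6 terms in A549 and 1 in NCI-H23, against 3.85% and 3.29% of genes. The lowest terms were those of CCNA2 in A549, -2.02 (SE 0.19, adjusted p = 0.000136), and CDK1 in NCI-H23, -1.02 (SE 0.21, adjusted p = 0.00659). CCND2 had the positive term, 0.80 (SE 0.18, adjusted p = 0.00909). CCND1 did not pass in either line, with 0.20 (SE 0.20, adjusted p = 0.534) and -0.11 (SE 0.11, adjusted p = 0.561), nor did CCNE2 in NCI-H23, with -0.45 (SE 0.24, adjusted p = 0.214). For the members that passed below 0, DKD libraries were thus lower than the sum of the single effects. These terms also take in single effects that did not pass and that share the control libraries. A term in A549 can therefore lie below -1 where the DKD effect does not. The CCND3 term there, -0.81, holds a small DKD fall and rises in both single knockdowns that did not pass.

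In the glioma lines, members passed the test after single knockouts in LN319 and in none of LN229 when all libraries were fitted without a replicate block. The lines were not tested against each other. In LN319 Luc TRA2A KO, CCND1 rose and no other member passed, 1 of 9 higher and 0 lower against 7% and 7.25% of 19303 genes. In LN319 Luc TRA2B KO, 5 of 9 fell and 0 rose, against 24.2% and 18.5% of genes, and 0 fell by more than 1 on the log2 scale, against 0.917%. In LN229 no member passed in either knockout by limma, against 1.96% higher and 1.83% lower for Luc TRA2A KO and 0.211% and 0.346% for Luc TRA2B KO among 18490 genes. At an unadjusted p under 0.05 there were 1 and 2 members in those LN229 knockouts, beside 21.6% and 23.3% of genes. By the same test no member passed in TRA2B-OE Control KO of either line, with 0.725% and 0.303% of genes in LN229 and 2.14% and 2.16% in LN319, and 0 and 1 members at an unadjusted p under 0.05, beside 14.3% and 25.0% of genes.

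**Figure D4:**
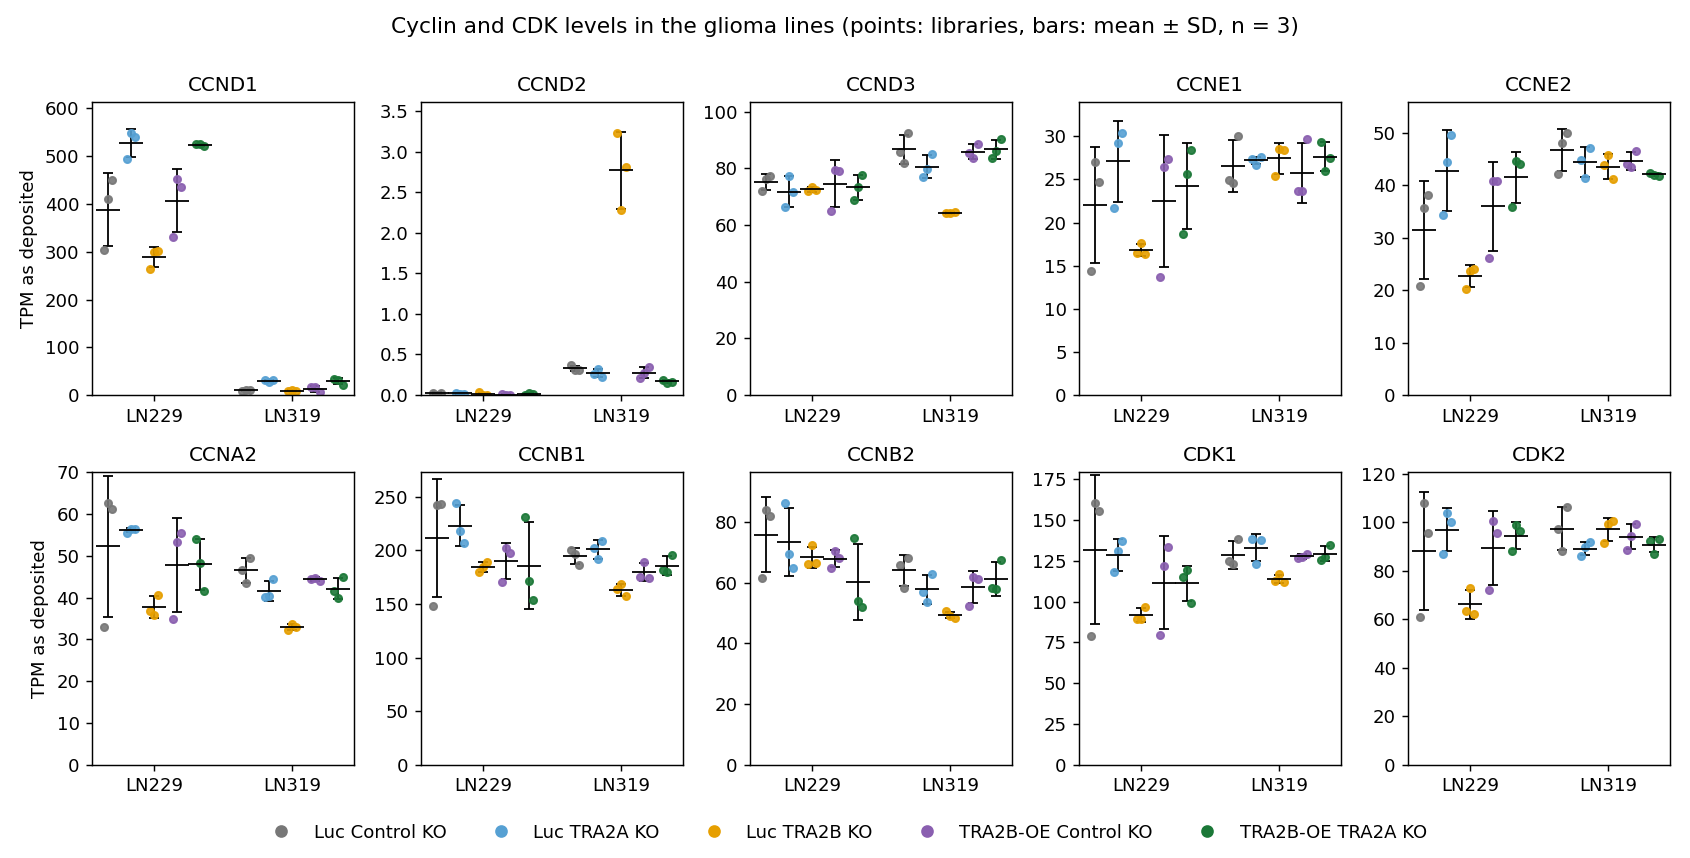
TPM of the 10 members in each library of LN229 and LN319, by group; points are libraries and bars the mean ± SD of 3. CCND1 is highest in the TRA2A knockouts of LN319, and several members are low in 1 Luc Control KO library of LN229.

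CCND1 in LN319 rose after Luc TRA2A KO. It was at 8.72, 11.2 and 9.85 TPM in Luc Control KO, 31.2, 27.0 and 30.9 TPM in Luc TRA2A KO and 8.25, 9.81 and 8.09 TPM in Luc TRA2B KO. All TRA2A KO libraries were far above the controls, whereas TRA2B KO overlapped with them. Upward non-overlap after Luc TRA2A KO was seen for 13.4% of all genes. The log2 fold change after Luc TRA2A KO was 1.62 (SE 0.28, adjusted p = 0.00243), to 299.7% of the control mean, and the call held under every alternative tried, with log2 fold changes from 1.53 to 1.69. CCND1 thereby went from 10.2 ± 1.48% to 26.9 ± 1.80% of the D-type TPM. After Luc TRA2B KO it changed by -0.29 (SE 0.28, adjusted p = 0.431).

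With TRA2B overexpressed, CCND1 in LN319 was at 16.3, 17.8 and 6.45 TPM in Control KO and 33.3, 31.4 and 21.4 TPM in TRA2A KO. The third library was the lowest of each group. The TRA2A KO effect was 1.25 (SE 0.28, adjusted p = 0.0354), 1 of 9 members higher and 0 lower against 1.54% and 1.27% of genes. This call did not hold without TRA2B-OE Control KO replicate 3 (0.80) or TRA2B-OE TRA2A KO replicate 1 (1.14) or 2 (1.18), and adjusted p ran from 0.0236 to 0.242 over all alternatives. TRA2B-OE Control KO against Luc Control KO gave CCND1 0.23 (SE 0.28, adjusted p = 0.636), which became 0.69 and passed without TRA2B-OE Control KO replicate 3. The difference between the TRA2A KO effects with and without TRA2B-OE was -0.37 (SE 0.39, adjusted p = 0.864). No member passed that interaction test by limma in either glioma line, and none had an unadjusted p under 0.05 in it, as 5.78% of genes had in LN229 and 7.93% in LN319, beside adjusted calls for 0.0207% of genes above 0 in LN319 and 0% in LN229.

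CCND3 and CCND2, the other D-type cyclins, moved in LN319 Luc TRA2B KO instead. CCND3 was at 85.8, 82.0 and 92.3 TPM in controls and 64.1, 64.2 and 64.7 TPM after Luc TRA2B KO. All knockout libraries were below the controls and close together, with a log2 fold change of -0.54 (SE 0.080, adjusted p = 0.000249). CCND2 was at 0.367, 0.306 and 0.315 TPM in controls and 3.22, 2.28 and 2.81 TPM after Luc TRA2B KO, and at most 0.342 TPM in the TRA2B-OE groups. Only the 3 TRA2B KO libraries were above 1 TPM, 1 short of the filter, so CCND2 had no test in the filtered fit. A fit without the filter gave 2.57 (SE 0.24, adjusted p = 6.33e-05), for a transcript that stayed below CCND1 and CCND3 in every library.

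The mitotic members of LN319 fell after Luc TRA2B KO by smaller amounts than in the lung double knockdowns. CCNA2 went from 46.6, 43.5 and 49.4 to 32.2, 33.7 and 33.0 TPM, with no overlap. CCNB1 went from 201, 196 and 187 to 164, 168 and 157 TPM, and CCNB2 from 65.9, 58.2 and 68.0 to 50.5, 49.1 and 48.4 TPM. CDK1 went from 125, 123 and 139 to 113, 117 and 112 TPM. In each of the 4 genes every knockout library lay below every control. The log2 fold changes were -0.60 (SE 0.084, adjusted p = 0.000172) for CCNA2, -0.48 (SE 0.12, adjusted p = 0.00521) for CCNB2, -0.36 (SE 0.072, adjusted p = 0.00156) for CCNB1 and -0.29 (SE 0.076, adjusted p = 0.00899) for CDK1, the last of which was not called after quantile normalization (-0.11). The 5 members without overlap, CCND3 included, compare with 22.1% of all genes.

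The G1/S members of LN319 did not pass the test in that knockout. CCNE1 was at 24.9, 24.6 and 30.0 TPM in controls and 25.4, 28.5 and 28.5 TPM after Luc TRA2B KO, and CDK2 at 97.4, 88.3 and 106 and 91.6, 99.1 and 100.5 TPM. Both pairs of groups overlapped, with log2 fold changes of -0.06 (SE 0.11, adjusted p = 0.721) and -0.11 (SE 0.090, adjusted p = 0.35). CCNE2 changed by -0.21 (SE 0.083, adjusted p = 0.0603). Mitochondrial transcripts took 18.3 to 20.6% of TPM in LN319 Luc TRA2B KO and 12.1 to 12.8% in its controls, and their part in these results was not tested. Marker sums in LN319 also differed from Luc Control KO. Mesenchymal markers summed to 3444 to 3660 TPM after Luc TRA2B KO and 5634 to 5817 after Luc TRA2A KO, against 4735 to 4829. Glial or neural markers summed to 494 to 506 and 327 to 365, against 386 to 430. Epithelial markers summed to 281 to 295 and 323 to 336, against 337 to 348. The part of these markers was not tested either. After Luc TRA2A KO, the 8 tested members other than CCND1 had log2 fold changes between -0.12 and 0.09.

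LN229 is read with its first Luc Control KO library in mind, which correlated more with Luc TRA2B KO libraries than with its own group. CCNA2 was at 32.8, 62.6 and 61.2 TPM in Luc Control KO and 36.9, 35.7 and 40.6 TPM in Luc TRA2B KO. CDK1 was at 79.2, 160.4 and 156 and 89.1, 89.3 and 96.5 TPM in the same groups, and CCNE2 at 20.9, 35.6 and 38.1 and 20.3, 23.7 and 24.0 TPM. In all 3 genes the first control library sat within or below the knockout range and the other 2 controls sat above it. With all libraries the log2 fold changes were -0.51 (SE 0.24, adjusted p = 0.229) for CDK1, -0.46 (SE 0.23, adjusted p = 0.236) for CCNA2 and -0.48 (SE 0.24, adjusted p = 0.237) for CCNE2, and the median of the 9 tested members was -0.42 beside 0.00 over all genes.

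Without that control library, 6 of 9 members fell in LN229 Luc TRA2B KO, against 11.7% of all genes. These were CDK1 at -0.83 (SE 0.18, adjusted p = 0.0101), CCNA2 at -0.76 (SE 0.17, adjusted p = 0.0114), CCNE2 at -0.75 (SE 0.20, adjusted p = 0.0249), CDK2 at -0.66 (SE 0.15, adjusted p = 0.0111), CCND1 at -0.62 (SE 0.12, adjusted p = 0.00638) and CCNB1 at -0.44 (SE 0.13, adjusted p = 0.0355). CCNE1, CCNB2 and CCND3 did not pass, at -0.66, -0.32 and -0.12. The count thus rests on 1 library, and the adjusted p of CDK1 ran from 8.85e-05 to 0.604 over all alternatives.

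CCND1 was the LN229 member whose knockout libraries lay outside the control range in both directions. It was at 304, 411 and 451 TPM in Luc Control KO, 495, 548 and 540.4 TPM in Luc TRA2A KO and 265, 301 and 301 TPM in Luc TRA2B KO. With TRA2B-OE it was at 331, 453 and 436 TPM in Control KO and 525, 526 and 522 TPM in TRA2A KO. TRA2A KO libraries were above, and TRA2B KO libraries below, all matching controls. The log2 fold changes were 0.48 (SE 0.14, adjusted p = 0.0752), -0.46 (SE 0.14, adjusted p = 0.105) and 0.35 (SE 0.14, adjusted p = 0.165), in that order of knockouts, and none passed the test with all libraries and no replicate block. Upward non-overlap was seen for 12% and 16.1% of genes in the TRA2A knockouts without and with TRA2B-OE, and downward non-overlap for 9.31% in Luc TRA2B KO. In TRA2B-OE TRA2A KO of LN229 0 of 9 members passed and 1 had an unadjusted p under 0.05 (22.2% of all genes), against adjusted calls for 2.17% and 3.88% of genes higher and lower.

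The D-type to A- and B-type ratio reflected these changes in the glioma lines. In LN319 it was 0.318 ± 0.0175 in Luc Control KO, 0.368 ± 0.00599 in Luc TRA2A KO and 0.309 ± 0.00680 in Luc TRA2B KO. The TRA2A KO range of 0.363 to 0.375 was above the control range of 0.303 to 0.337, while TRA2B KO overlapped with it. The D-type to E-type ratio was 1.33 ± 0.0745, 1.54 ± 0.0363 and 1.07 ± 0.0353 in the same groups, higher after TRA2A KO and lower after TRA2B KO without overlap. After TRA2B KO the directions turned when each cyclin was weighed equally. The change became 0.73 against -0.31 (log2) for the E-type ratio and 1.08 against -0.04 for the A- and B-type ratio. That weighting gives full weight to CCND2, which did not pass the filter and went from a mean of 0.329 to 2.77 TPM. The means of CCND1 and CCND3 did not rise. In LN229 the D-type to A- and B-type ratio was 1.39 ± 0.149 in Luc Control KO and 1.71 ± 0.225 in Luc TRA2A KO. These overlapped through Luc Control KO replicate 1 (1.55) alone, the other 2 controls being at 1.25 and 1.36 below a TRA2A KO range of 1.46 to 1.87. With TRA2B-OE the ratio was 1.57 ± 0.0930 in Control KO and 2.09 ± 0.397 in TRA2A KO. Their ranges of 1.46 to 1.64 and 1.65 to 2.42 did not overlap but nearly met.

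The inhibitors, activators and other partners of the CDKs were counted from lists of 26 CDK regulators, 15 other cyclins, 8 other CDKs and 4 proliferation genes. In A549 DKD, 2 of 23 tested CDK regulators rose and 12 fell (median -0.54), or 4 and 13 (median -0.65) without Control KD replicate 3, and in NCI-H23 DKD 5 of 26 rose and 14 fell (median -0.38). Beside these, 14.6% of all genes rose and 15.9% fell in A549 DKD, or 17.5% and 20.2% without that control library. In NCI-H23 DKD 20% of all genes rose and 23.2% fell. CDKN1A, which encodes the CDK inhibitor p21, rose in both double knockdowns. Its TPM was 154, 184 and 161 in A549 controls and 612, 649 and 696 in DKD, and 74.6, 96.4 and 88.1 in NCI-H23 controls and 332, 287 and 331 in DKD. The groups were far apart, with log2 fold changes of 1.90 (SE 0.11, adjusted p = 1.26e-06) and 1.72 (SE 0.072, adjusted p = 5.27e-08). The CDK-activating phosphatases CDC25C (-1.56), CDC25B (-1.26) and CDC25A (-0.89) fell in A549. So did CDC20 (-1.50), an activator of the anaphase-promoting complex, PKMYT1 (-1.38), an inhibitory kinase of CDK1, and SKP2 (-1.18), a ubiquitin ligase subunit that recognises p27, while FBXW7, a ubiquitin ligase subunit that recognises cyclin E, rose (1.23). In NCI-H23, the CDK4 and CDK6 inhibitor CDKN2C (-1.51), PKMYT1 (-1.40), CDC25A (-1.15), FBXO5 (-0.92), MNAT1 (-0.83) and CDC20 (-0.72) fell and the inhibitor CDKN1C (1.07) rose.

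CDK4, the kinase partner of the D-type cyclins, fell in both double knockdowns, by 0.55 in A549 and 0.29 in NCI-H23. CDK6 was at 0.11 and 0.30 and did not pass, and CDKN1B passed in NCI-H23 only (0.20, against 0.37 in A549), a difference between lines that was not tested. Among other cyclins 3 of 13 rose and 1 fell in A549, or 5 and 1 without Control KD replicate 3, where 17.5% of all genes rose, and 4 of 14 rose and 2 fell in NCI-H23. CCNG2 (1.05 and 1.85) and CCNG1 (0.88 and 0.77) rose in both lines and CCNF (-1.73 and -0.76) fell in both. Of 8 other CDKs, 0 rose and 1 fell in A549, and 1 rose and 2 fell in NCI-H23. The shares of all genes were 14.6% higher and 15.9% lower in A549 DKD, and 20% and 23.2% in NCI-H23 DKD. Counts of other CDKs were near or below those shares. MKI67, TOP2A, MCM2 and PCNA, which mark dividing cells, all fell in both lines, MKI67 by 2.14 and 1.25. In the single knockdowns of both lines no CDK regulator passed, where at most 0.601% of all genes passed in either direction.

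In LN319 Luc TRA2B KO, where 24.2% of all genes fell and 18.5% rose, 15 of 25 CDK regulators fell and none rose (median -0.37). They included the subunits of the CDK-activating kinase CCNH (-0.98), CDK7 (-0.61) and MNAT1 (-0.59), and CKS1B (-0.77), CDKN2D (-0.62), CDK4 (-0.58) and CDKN2C (-0.56). CDKN1A fell here, by 0.58, unlike in the lung double knockdowns. CDK6 and CDKN1B did not pass, at -0.07 and -0.07. Among the 13 other cyclins 2 rose and 5 fell, with CCNY (-0.72), CCNI (-0.52), CCNL2 (0.43) and CCNL1 (0.40) the farthest from 0. Of the 8 other CDKs 2 fell, CDK5 (-0.42) and CDK8 (-0.33), and 3 of the 4 proliferation genes fell, PCNA by 0.68. The counts of other CDKs that fell and of other cyclins that rose were near the shares of all genes. In LN319 Luc TRA2A KO, 3 of 25 regulators rose and 2 fell, among them CDK6 (0.37), CDKN2B (0.29), WEE1 (0.23), FBXW7 (-0.31) and CDC25B (-0.45), while CDK4, CDKN1A and CDKN1B did not pass, at -0.13, 0.16 and 0.06. There 7% of all genes rose and 7.25% fell, the latter share near that of the regulators. In LN229, 1 of 23 regulators rose (CDK6, 0.49) and 1 fell (CDKN1B, -0.33) after Luc TRA2A KO, and 1 fell after Luc TRA2B KO (CDKN1A, -0.48), a count that became 13 without Luc Control KO replicate 1. Without that library 0 regulators rose and 1 fell (CDKN1B, -0.38) after Luc TRA2A KO, with CDK6 at 0.39. With all libraries 1.96% of all genes rose and 1.83% fell after Luc TRA2A KO, and 0.346% fell after Luc TRA2B KO. Without Luc Control KO replicate 1 these shares were 0.512%, 0.545% and 11.7%. CDK4 did not pass in LN229, at 0.08 after Luc TRA2A KO and -0.28 after Luc TRA2B KO with all libraries. In TRA2B-OE TRA2A KO, 1 regulator rose (CDK7, 0.40) and 2 fell in LN229 (CDKN1C, -1.18, and CDKN1B, -0.32), and 2 rose in LN319 (CDK7, 0.41, and CDKN2B, 0.27). Shares of all genes there were 2.17% higher and 3.88% lower in LN229, and 1.54% and 1.27% in LN319.

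Across the 14 comparisons, the genes whose log2 fold changes were most like those of each member were looked up. The search covered 8987 genes tested in every line with a mean of at least 5 TPM in each line. It is a description over comparisons that share libraries. CCNA2 was closest to KIF11 (r 0.991), BUB1 (0.988) and PLK1 (0.986), CCNB1 to CDC20 (0.977), PBK (0.973) and CDCA8 (0.970), and CCNB2 to FAM64A (0.962), CDC20 (0.959) and KIF20A (0.958). CDK1 was closest to PLK1 (0.973), KIF2C (0.972) and CDC20 (0.970), and CDK2 to E2F1 (0.968), ASF1B (0.968) and SUV39H1 (0.966). For CCNE2 these were CDC6 (0.967), CDC25A (0.943) and CDT1 (0.942), and for CCNE1 TSR1 (0.963), POP1 (0.950) and C4orf46 (0.949). CCND3 was most like CFL1 (0.965), ILK (0.955) and HNRNPH3 (0.949), and CCND1 most like AP5B1 (0.922), RRP15 (0.886) and NT5E (0.884). Between members, CCNB1 and CCNB2 had an r of 0.981, CCNA2 and CDK1 0.959 and CCNE2 and CDK2 0.922, while CCND1 had 0.207 to 0.403 with every other tested member.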

How the data were processed

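RNA-seq of 54 samples (3 per group) was analysed from the TPM tables deposited by the authors, 1 per cell line. Per the methods and the submitters' processing notes, paired 150-base reads of poly(A) RNA were processed with tools that included STAR 2.7.3 and kallisto 0.48.0, on GRCh38 with Gencode v34. How transcript values were summed to genes is not given in the sources used here. TPM keep no sequencing depth, so no counting interval is given. The authors tested counts with limma-voom, which TPM do not allow. Here limma 3.58.1 (R 4.3.3) was fitted per line to log2(TPM + 0.1), with libraries scaled by trimmed means (30% on log ratios, 5% on abundance), genes at 1 TPM or more in at least 4 libraries kept, and Benjamini-Hochberg adjustment over all kept genes of the line. Overlap, ratios and shares used TPM as deposited. The pipeline was tested on simulated data. The 10 members and the gene lists were chosen with earlier results of these data known. All members are named, with TRA2A and TRA2B. Of passing regulators up to 8, and of passing genes of other lists up to 4, were named by absolute log2 fold change, with CDK4, CDK6, CDKN1A and CDKN1B in every line, and 3 genes per member for likeness. Positions are from Gencode v44. Alternatives were the scaling, filter, pseudocount, fold threshold, samples fitted, replicate block and single libraries left out.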

Additional observations from a re-analysis of the deposited data

Results flagged for a closer look

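In the lung lines, the effect of TRA2A KD with TRA2B KD also present differed from its effect alone for 16 values of the set, by the interaction term on the log2 scale (DKD effect minus both single effects, limma, adjusted p under 0.05). In A549 the 8 terms were -2.02 for CCNA2, -1.56 for CDK1, -1.49 for CCNB2, -1.40 for CCNB1, -1.23 for CCNE2, -1.04 for CDK2, -0.94 for CCNE1 and -0.81 for CCND3. Of these, CCNE1 lost its call without A549 Control KD replicate 3, at -0.81 (SE 0.27, adjusted p = 0.0544), and its adjusted p ran from 0.0184 to 0.151 over all alternatives. Without that library 7 of 9 members passed, against 13% of all genes below 0. In NCI-H23 the 8 terms were -1.02 for CDK1, -0.94 for CCNA2, -0.88 for CDK2, -0.76 for CCNE1, -0.63 for CCND3, -0.58 for CCNB1, -0.48 for CCNB2 and 0.80 for CCND2, the only one above 0. All 8 were called in each fit with 1 library left out.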

How the results depend on the processing

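No called value of a member changed sign under any alternative. Over single members and comparisons, pseudocounts of 0.5 and 1 changed no call, a 5 TPM minimum lost 1, quantile normalization lost 2, no filter lost 3, TPM as deposited lost 3 and a fit of only the groups compared lost 3. Asking also for an absolute log2 fold change above 1 left 3 members in A549 DKD (8 without it), 2 in NCI-H23 DKD (9), 1 for the NCI-H23 interaction (8) and 0 in LN319 Luc TRA2B KO (5). TPM as deposited left 5 members for the A549 interaction, without CCNE1, CCNE2 and CDK2. That scaling moved the median of all genes by up to 0.26, in the same A549 term, and by 0.11 to 0.17 in both double knockdowns. LN319 TRA2B-OE TRA2A KO had 0 members with no filter and with only the groups compared. Not every same-numbered pair of libraries deviated together (r over 0.1 in 3 of 18 pairs in A549, 1 of 18 in NCI-H23, 3 of 30 in LN229, where it reached 0.21, and 0 of 30 in LN319), so the numbers were not taken as pairs, although CCNE2 was lowest in replicate 1 of all 5 LN229 groups. The replicate block gained 6 calls and lost 2 (CCND3 in A549 DKD and the CCNE2 interaction term in A549). It gave 2 members each in LN229 Luc TRA2A KO and Luc TRA2B KO (CCND1 and CCNE2) and 1 in LN229 TRA2B-OE TRA2A KO (CCND1), where there were 0 without it, and added CCNE2 in LN319 Luc TRA2B KO. With both replicate 1 control libraries of LN229 left out, an alternative chosen after seeing the data, 1 member passed in Luc TRA2A KO and 7 in Luc TRA2B KO. Leaving out single libraries gave 6 to 8 members in A549 DKD, 5 to 8 for the A549 interaction (5 without TRA2B KD replicate 1), 0 to 6 in LN229 Luc TRA2B KO, 5 to 6 in LN319 Luc TRA2B KO, 0 to 1 in LN319 TRA2B-OE Control KO and 0 to 1 in LN319 TRA2B-OE TRA2A KO. It left 9 in NCI-H23 DKD, 8 for the NCI-H23 interaction and 1 in LN319 Luc TRA2A KO every time. The cause was not tested. With the ratios taken as differences of mean log2(TPM + 0.1), which weighs each gene equally, D-type over A- and B-type cyclins changed by 1.34 in A549 DKD, 0.0549 in NCI-H23 TRA2B KD, 0.77 in NCI-H23 DKD, 0.0552 in LN229 Luc TRA2A KO, 0.0503 in LN229 Luc TRA2B KO, 0.51 in LN319 Luc TRA2A KO and 1.08 in LN319 Luc TRA2B KO, where the summed ratio had changed by 0.90, -0.06, 0.54, 0.30, -0.15, 0.21 and -0.04. D-type over E-type cyclins changed by -0.27 in LN229 Luc TRA2A KO, 0.44 in LN319 Luc TRA2A KO and 0.73 in LN319 Luc TRA2B KO, where the summed ratio had changed by -0.03, 0.22 and -0.31. CCND2 enters the equally weighted values in full, although it did not pass the filter in A549, LN229 and LN319. The depth of the libraries is unknown, so the precision of low TPM such as those of CCND2 cannot be given.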
